A study of Rattus norvegicus with 24 samples.

Results

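The genes described here stood near or below their sham level on the first days after a clip injury of the rat spinal cord and above it from the second week on. They were chosen by measured values. Each gene symbol was represented by the ProbeSet with the highest mean over 24 arrays, the day 14 and day 56 means both had to lie at least 1 above the sham mean on the log2 scale, and the day 1 and day 3 means both had to lie less than 0.5 above it. A log2 difference of 1 is a 2-fold difference. Of 14218 genes, 43 met these limits, and 39 were kept after C1s, Cxcl10, Mx2 and Serping1 were left out by name along with Isg15, Irf7, Oas1a, Rsad2 and Usp18, which did not meet the limits. The days 1, 3, 14 and 56 therefore chose the genes, and their values are given as a description with no test. Day 7 against sham and day 56 against day 14 were the comparisons the limits did not use, although the sham, day 14 and day 56 arrays themselves took part in the choice.

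The samples were cord tissue from female Wistar rats, 1 rat to an array. Injured rats had a laminectomy over T6 to T8, and an aneurysm clip of 35 g then compressed the cord at T7 for 1 min, which bruises and squeezes the tissue. The injured cord was taken at the epicenter on day 1, day 3, day 7, day 14 or day 56, with 4 rats in each group. The 4 sham rats, called laminectomized by the study, carried no clip injury, and no source used here gives their day of sampling. The methods describe sham animals at each time point, but the arrays read here hold 4 sham rats in all. This single sham group served every time point, and all comparisons with sham share its arrays. As a check of the tissue, the 17 neuron markers on the arrays summed to between 16.64 and 17.07 on the log2 scale in the sham rats, and none of the 17 was near background in all groups. After the clip these sums were lower, at 12.31 to 13.91 on day 1, 15.45 to 16.16 on day 3, 13.30 to 15.81 on day 7, 12.76 to 15.06 on day 14 and 14.02 to 15.49 on day 56.

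Clip injury kills neurons and oligodendrocytes within hours, and neutrophils, monocytes and microglia fill the lesion in the first days. Interferons then drive a set of antiviral and antigen-presenting genes through a short promoter element that the STAT and IRF factors bind. Fibroblasts of the meninges and of blood vessels lay down a collagen-rich scar over the following weeks, and macrophages that have taken up myelin handle large amounts of cholesterol. The 39 late genes were placed into groups by hand, by role where one is known. There were 6 interferon and MHC class I genes, 9 genes of leukocyte co-stimulation, adhesion and mediators, and 8 genes of matrix, meninges and growth factor. The rest were 5 genes of lipid, retinol, carnitine and copper handling, 3 transcription factors and 8 others. These roles were assigned after the genes were known, and counts by group depend on them. Some are loose, such as Fam180a and Scara3 in the matrix group and Ctsh among the leukocyte genes. Counts by group of genes called higher on day 7 stand beside 23.5% of all genes, and nothing is read from a contrast between groups. In the RefSeq annotation of the GRCr8 assembly 38 of the 39 could be placed, they lay on 16 chromosomes with at most 5 on any one, and 0 pairs lay within 5 genes of each other.

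Promoters, taken as the 250 bases before and the 50 bases after the start of transcription in RefSeq (GRCr8), were listed for 28 of the 39 genes. The other 11 were Rtp4, Tmem204, Hpgds, Tnfsf4, Slc6a13, Cd4, Fbln1, Scara3, Nr4a3, Clic2 and Nr2f2. The core of the interferon response element, searched on both strands as GAAA followed by any 2 bases and GAAA, was found in 5 of the 28 promoters (17.9%) and in 3.92% of all 33469 promoters of the same length. The 5 were those of Ifi44l, RT1-S3, Optn, Vcam1 and Ifi27, and Optn and Vcam1 are outside the interferon group. Their stretches around the element are shown because they are the only promoters of the late genes in which these letters were found. Capitals mark the element, and an element on the opposite strand reads TTTC, any 2 bases, TTTC.
Ifi44l: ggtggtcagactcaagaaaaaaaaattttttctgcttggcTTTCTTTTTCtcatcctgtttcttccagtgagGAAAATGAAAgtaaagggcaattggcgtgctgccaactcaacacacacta
RT1-S3: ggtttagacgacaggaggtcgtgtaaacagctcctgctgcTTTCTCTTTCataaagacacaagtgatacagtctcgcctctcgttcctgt
Optn: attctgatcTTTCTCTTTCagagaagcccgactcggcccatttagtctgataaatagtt
Vcam1: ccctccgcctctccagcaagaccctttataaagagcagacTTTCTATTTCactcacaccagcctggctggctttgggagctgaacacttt
Ifi27: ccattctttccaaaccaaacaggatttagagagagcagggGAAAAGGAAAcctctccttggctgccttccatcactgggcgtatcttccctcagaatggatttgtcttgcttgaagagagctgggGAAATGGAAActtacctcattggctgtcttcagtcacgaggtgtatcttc
Each stretch is written 5′ to 3′ in the direction of its gene. They lie at chr2:243328592-243328713 (plus strand), chr20:2675376-2675465 (plus), chr17:78118619-78118677 (plus), chr2:206742780-206742869 (minus) and chr6:128355103-128355277 (plus). Counted from the start of transcription, the elements of Ifi44l lay at -91 to -82 and -59 to -50, those of Ifi27 at -169 to -160 and -84 to -75, and the single elements of RT1-S3, Optn and Vcam1 began at -112, -241 and -46. None overlapped a match of the other motifs searched. The AP-1 motif TGANTCA was found in 3 of the 28 (10.7%, against 7.33% of all promoters; Adh1c, Entpd2 and Fam180a), the PU.1 motif GAGGAAGT in 0 (2.42% of all) and the TATA box TATAAA in 2 (7.14%, against 14.2%; Cp and Vcam1). A match of letters is a description and not a bound site.

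The late genes were a small share of the genes that stood above sham late. Of 975 genes with both late means at least 1 above sham, 631 were already 0.5 or more above it on both early days, 292 on day 1 alone, 9 on day 3 alone and 43 on neither. The level of the 39 in sham tissue ranged from 2.00 to 11.98 on the log2 scale (median 7.63, against 6.61 over all genes), and 10 had a sham mean under 5. Near background a summary cannot read much lower, so a fold change over such a sham level may understate the change. Their median difference from sham was -0.02 on day 1, -1.07 on day 3, 0.91 on day 7, 1.49 on day 14 and 1.80 on day 56, and over all genes these medians lay between -0.05 and 0.03. The limits set no floor on the early days, and most late genes did not simply stay at their sham level. On day 3, 22 of the 39 were 1 or more below sham (7.09% of all genes were), and 34 of the 39 were lower on day 3 than on day 1. Only 13 stayed within 0.5 of sham in both directions on both early days.

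**Figure D1:**
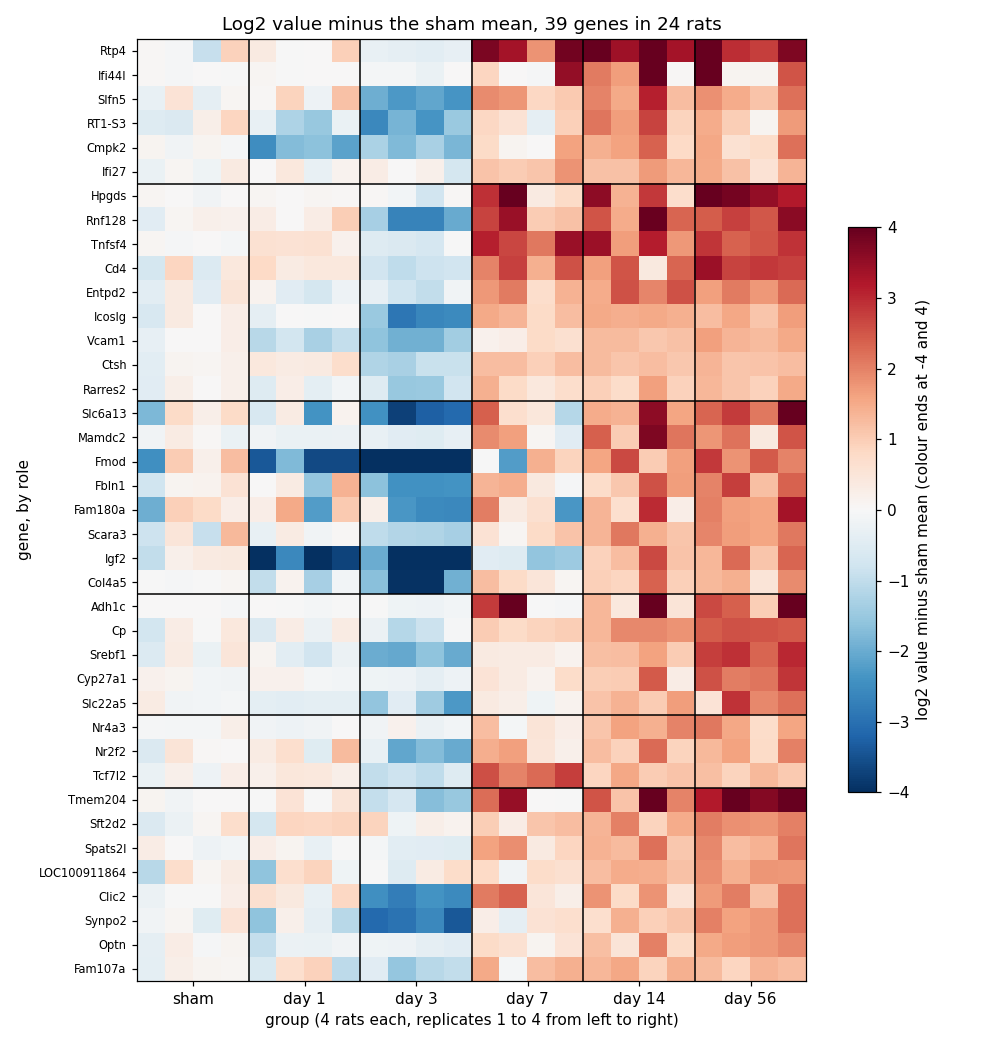
Log2 value minus the sham mean for the 39 genes (rows, by role) in each of the 24 rats (columns, by group, with 4 rats each); red is above and blue below the sham mean, and the colour scale ends at -4 and 4. Day 3 is mostly blue, with 26 of the 39 genes at -0.5 or lower, and days 14 and 56 are red because the genes were chosen for it.

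Day 7 was the one time point that played no part in the choice. There 18 of the 39 genes (46.2%) rose over sham at an adjusted p under 0.05 in limma, where 23.5% of all genes did, and 0 fell, where 30% of all genes did. The other 21 did not pass the test, and the count at an unadjusted p under 0.05 was also 18 higher and 0 lower. The 30% is not a share of large falls. It includes 9 of 14 mast cell markers, called lower by only -0.31 to -0.05, as well as the 17 neuron markers at -4.78 to -1.36. The estimate was above 0 for 38 of the 39, with Igf2 at -1.0 the exception. It was 1 or more for 17 genes, between 0.5 and 1 for 13 and under 0.5 for 9. The median estimate was 0.91 for the 39, against -0.05 over all genes. The sham arrays in these estimates took part in the choice of the genes. In 14 of the 39 all 4 day 7 values lay above all 4 sham values, where this was so for 20.2% of all genes. On day 14 the same held for 35 of the 39 and on day 56 for 38, against 19.7% and 18.6% of all genes, counts that the choice of the genes largely sets. Both counts include Ifi44l, whose lowest rats on days 14 and 56, at 2.62 and 2.66, were barely above the highest sham rat at 2.61. The day 7 mean lay below both late means in 34 genes, between them in 3 and over both in 2, Tnfsf4 and Tcf7l2. All 17 neuron markers fell on day 7, with a median of -2.69, and the part of this difference in the values of the late genes was not tested. In bulk tissue, a change in the number of cells of a type and a change in the RNA of each cell cannot be told apart.

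**Figure D2:**
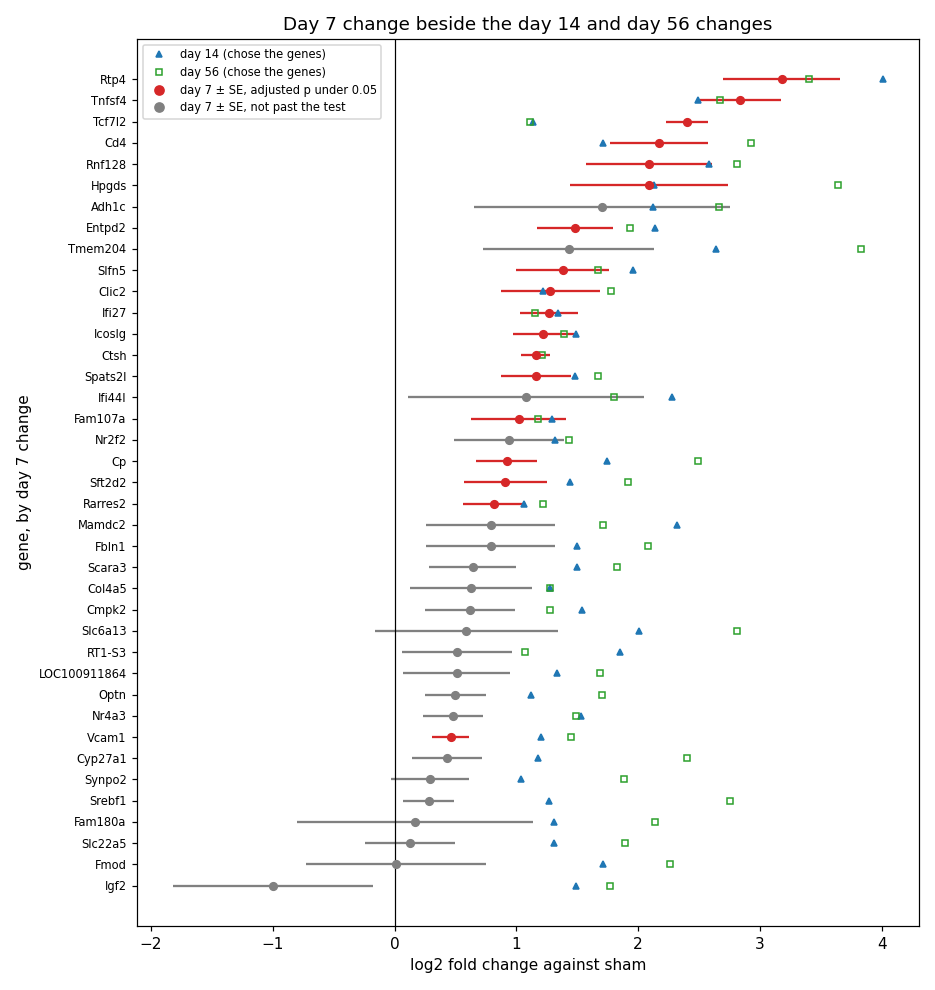
Log2 fold change against sham of each of the 39 genes on day 7 (circles with the standard error of the limma fit; red where the adjusted p was under 0.05, grey otherwise), day 14 (triangles) and day 56 (open squares). The 18 red genes run from Rtp4 at 3.18 to Vcam1 at 0.46, and Igf2 at -1.0 is the single gene left of 0.

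The interferon and MHC class I group held Rtp4, Slfn5, Ifi27, Ifi44l, Cmpk2 and RT1-S3. Of these 6, 3 rose on day 7, where 23.5% of all genes did. Rtp4, an interferon-induced regulator of antiviral signalling that also escorts taste and opioid receptors to the membrane, stood at 6.28, 6.18, 5.32 and 7.15 in the sham rats, 5.81 to 5.92 on day 3 and 9.98, 9.55, 8.03 and 10.09 on day 7. Every day 7 rat was above every sham rat, and the fold change was 3.18 (SE 0.48, adjusted p = 3.66e-05). On day 14 the values were 10.24, 9.62, 11.55 and 9.57 and on day 56 they were 10.39, 9.18, 8.98 and 9.97, which is the highest late mean difference of the 39 genes.

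Ifi27, a small mitochondrial protein induced by type I interferon, was bright already in sham cord at 11.72, 12.06, 11.80 and 12.33 and read 13.12, 13.01, 13.08 and 13.78 on day 7. The groups did not overlap and the fold change was 1.27 (SE 0.24, adjusted p = 0.000291). Slfn5, a member of the Schlafen family of interferon-induced growth regulators, was 7.15 to 8.00 in sham, 5.09 to 5.49 on day 3 and 9.34, 9.22, 8.27 and 8.49 on day 7 (1.38, SE 0.38, adjusted p = 0.00677). It thus passed from well below the sham range to above it between 2 sampling days.

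Ifi44l, Cmpk2 and RT1-S3 did not pass the test on day 7. Ifi44l, an interferon-induced gene of the immune response to virus, was near background in all sham, day 1 and day 3 rats, between 2.29 and 2.63. From day 7 on it split within each group: 3.43, 2.58, 2.51 and 6.06 on day 7, 4.64, 4.22, 7.85 and 2.62 on day 14, and 7.03, 2.67, 2.66 and 5.08 on day 56. Its late means thus rest on some rats while others stayed at the sham level, and its day 7 estimate was 1.08 (SE 0.97, adjusted p = 0.352).

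Cmpk2, the mitochondrial nucleotide kinase induced by interferon, lay below sham on both early days. It read 8.68, 8.43, 8.70 and 8.54 in sham, 6.09 to 6.95 on day 1, 6.76 to 7.31 on day 3, 8.61 to 10.18 on day 7 and 9.38 to 10.93 on day 14. RT1-S3, a non-classical MHC class I gene, was 9.33 to 10.78 in sham, 7.34 to 8.45 on day 3, 10.81 to 12.61 on day 14 and 10.02 to 11.62 on day 56. All 6 genes of the group had lower estimates on day 56 than on day 14, and none of the 6 differences passed the test.

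Of 64 interferon-stimulated genes listed, 48 were measured, 37 of the 48 (77.1%) rose on day 7 and 0 fell, and 5 of the 48 are late genes. The median difference of the 48 from sham was 1.08 on day 1, 0.22 on day 3, 1.85 on day 7, 2.46 on day 14 and 1.83 on day 56. A day 1 comparison with the late genes is fixed by the early limit and by the interferon genes left out by name, and nothing is read from it. Of 19 measured genes of MHC class I and peptide loading, 10 (52.6%) rose on day 7 and 0 fell, and RT1-S3 is the late gene among them.

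All 9 genes placed under leukocyte co-stimulation, adhesion and mediators rose on day 7, where 23.5% of all genes did. Hpgds, Vcam1 and Rarres2 did not pass under some of the alternatives run. Tnfsf4, the OX40 ligand that co-stimulates T cells, read 3.56, 3.43, 3.50 and 3.41 in sham and 6.58, 6.15, 5.60 and 6.92 on day 7 (fold change 2.84, SE 0.33, adjusted p = 2.02e-06). Its late values ran from 5.16 to 6.89 on day 14 and 5.85 to 6.37 on day 56, which overlapped its day 7 values. On day 1 its mean was 0.49 above sham, and the gene was just inside the early limit.

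Cd4, the co-receptor for MHC class II, is carried in the rat by helper T cells and also by macrophages and microglia. It read 4.22, 5.78, 4.38 and 5.34 in sham, 3.91 to 4.17 on day 3 and 6.90, 7.67, 6.35 and 7.47 on day 7. Later it read 6.56, 7.43, 5.31 and 7.27 on day 14, which overlapped the sham rats, and 8.35, 7.63, 7.77 and 7.67 on day 56. All day 7 rats were above all sham rats, and the fold change was 2.17 (SE 0.40, adjusted p = 0.00025). Of the 33 measured T cell and NK cell markers, 4 (12.1%) were called higher on day 7, namely Cd4 itself, Cd8a (5.34 above sham, adjusted p = 8.41e-06), Cd8b (2.36, adjusted p = 0.023) and Icos (1.03, adjusted p = 0.0324). A further 10 (30.3%) were called lower, by differences of only -0.21 to -0.05, near the 30% of all genes. Of the defining T cell genes, Cd3e was at 5.21 in sham and -0.13 from it on day 7, and Cd3d, Cd3g, Lck and Zap70 were among 22 of the list with group means under 3 in every group. The summed level of the list was 7.96 to 8.09 in sham, 9.27 to 9.84 on day 1 and 7.87 to 8.15 on day 3. Later it was 8.59 to 10.81 on day 7, 8.93 to 9.62 on day 14 and 9.04 to 9.61 on day 56. The list thus stood above sham on day 1 already. The 8 measured macrophage markers, of which 7 (87.5%) rose on day 7, summed to 10.75 to 13.17 in sham, 15.99 to 16.28 on day 1, 15.35 to 16.42 on day 7 and 15.67 to 16.03 on day 56. The part of either cell type in the Cd4 values was not tested.

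Hpgds, the haematopoietic synthase of prostaglandin D2, was at 2.91 to 3.12 in the sham rats, close to background, and at 5.97, 7.32, 3.41 and 3.81 on day 7. All 4 exceeded the sham rats but the 4 differed widely among themselves, and the estimate of 2.09 (SE 0.65, adjusted p = 0.0157), which may understate a change from so low a sham level, had an adjusted p of 0.0555 without day 7 replicate 1 and 0.0614 without day 7 replicate 2. On day 56 the 4 rats were close together at 7.09, 6.87, 6.54 and 6.22. Rnf128, the ubiquitin ligase GRAIL that holds T cells unresponsive, was 5.80 to 6.47 in sham, 3.58 to 4.93 on day 3 and 8.97, 9.71, 7.27 and 7.43 on day 7 (2.09, SE 0.52, adjusted p = 0.00346).

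Entpd2, an ectonucleotidase that splits extracellular ATP, was 6.86 to 7.82 in sham and 8.01 to 9.40 on day 7 (1.48, SE 0.31, adjusted p = 0.000899). Icoslg, the ligand of the T cell co-stimulator ICOS, was 7.52 to 8.54 in sham, 5.29 to 6.70 on day 3 and 8.92 to 9.70 on day 7 (1.22, SE 0.25, adjusted p = 0.000782). The groups did not overlap for either gene. On day 14 Icoslg read 9.68, 9.63, 9.70 and 9.59, the tightest late group of the 39 genes.

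Ctsh, the lysosomal protease cathepsin H, had the narrowest spread on day 7 after Cp and Srebf1. It read 10.60, 11.13, 11.10 and 11.21 in sham, 9.71 to 10.11 on day 3, 12.24, 12.25, 11.96 and 12.23 on day 7, 12.08 to 12.28 on day 14 and 12.13 to 12.36 on day 56. The day 7 fold change was 1.16 (SE 0.12, adjusted p = 7.47e-07), and the 3 later groups overlapped one another. Rarres2, which encodes the chemoattractant chemerin, and Vcam1, the endothelial and glial adhesion molecule for leukocytes, showed smaller day 7 changes of 0.82 (SE 0.26, adjusted p = 0.0171) and 0.46 (SE 0.15, adjusted p = 0.0218).

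Vcam1 had the lowest day 1 difference from sham of the 9 genes, with values of 8.77 to 9.33 against 9.73 to 10.34 in sham, and was 8.15 to 8.69 on day 3. It was 11.15 to 11.33 on day 14 and 11.34 to 11.71 on day 56, above every sham rat. On day 7, at 10.24, 10.34, 10.82 and 10.72, it still overlapped the sham rats. It missed the threshold under 7 alternatives, with adjusted p-values from 0.053 after quantile normalization to 0.0907 without sham replicate 1. Rarres2 without that array had an adjusted p of 0.0665.

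The 8 genes of matrix, meninges and growth factor were the lowest on day 3 and had no member past the test on day 7. Their median difference from sham was -2.54 on day 3, 0.61 on day 7, 1.5 on day 14 and 1.96 on day 56. Igf2, the growth factor secreted by meninges and choroid plexus, was abundant in sham cord at 9.88, 11.06, 11.22 and 11.26. It was 6.05, 8.29, 3.68 and 7.15 on day 1, 8.89, 5.03, 6.21 and 5.66 on day 3, 10.42, 10.33, 9.27 and 9.41 on day 7, 11.79 to 13.50 on day 14 and 12.20, 13.13, 11.98 and 13.19 on day 56. Every early rat was below, and every late rat above, every sham rat, and the day 7 estimate of -1.0 (SE 0.82, adjusted p = 0.307) did not pass the test.

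Fmod, the collagen-binding proteoglycan fibromodulin, showed the lowest day 3 values against sham of all 39 genes. It read 5.02, 8.48, 7.68 and 8.71 in sham, 3.86 to 5.71 on day 1, 2.25 to 2.54 on day 3 and 7.46, 5.23, 8.90 and 8.36 on day 7. Sham replicate 1 stood well below the other sham rats, and the day 7 estimate of 0.01 (SE 0.74, adjusted p = 0.988) became -0.80 without it. On day 14 the range was 8.49 to 10.11 and on day 56 it was 9.26 to 10.29, and Fmod did not meet the limits when sham replicate 1 was left out.

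Slc6a13, the GABA and taurine transporter GAT2 of the meninges, followed the same course, with 4.25, 6.83, 6.29 and 6.83 in sham, 2.33 to 3.62 on day 3, 4.90 to 8.43 on day 7, 7.45 to 9.62 on day 14 and 8.15 to 10.05 on day 56. Fbln1, the elastic-fibre glycoprotein fibulin 1, was 6.94 to 8.32 in sham, 5.32 to 6.09 on day 3 and 8.94 to 10.52 on day 56. Col4a5, a basement membrane collagen chain, was 8.15 to 8.28 in sham and 6.52, 4.25, 4.24 and 6.28 on day 3. All late rats were above all sham rats for the 3 genes. The day 7 estimates were 0.59 (SE 0.75) for Slc6a13, 0.79 (SE 0.53) for Fbln1 and 0.63 (SE 0.50) for Col4a5.

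Mamdc2, an extracellular matrix proteoglycan, was near background in sham at 3.04 to 3.63 and read 5.68, 4.32, 7.03 and 5.43 on day 14. Fam180a, a secreted protein of unclear function, was 4.39, 7.29, 7.13 and 6.61 in sham and 8.37, 7.99, 7.92 and 9.68 on day 56. On day 14, at 7.70, 7.02, 9.32 and 6.60, Fam180a overlapped the sham rats, as 4 of the 39 genes did on that day. Scara3, a scavenger receptor induced by oxidative stress, was 7.63 to 9.76 in sham and overlapped that range on day 14 at 9.58 to 10.58, while its day 56 values of 10.05 to 10.58 were above it. Without sham replicate 4 its day 7 estimate of 1.07 passed the test (adjusted p = 0.00877).

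Markers of fibroblasts and meninges were read beside these genes. Of 26 listed genes 23 were measured and 3 of them, Slc6a13, Fmod and Igf2, are late genes, so the list is not independent of them. On day 7, 5 of the 23 (21.7%) were called higher and 4 (17.4%) lower, shares no higher than the 23.5% and 30% of all genes, and their median difference from sham was 0.12 on day 1, -1.54 on day 3, 0.59 on day 7, 0.93 on day 14 and 1.65 on day 56. The summed level of the list was 14.86 to 15.71 in sham, 13.27 to 14.59 on day 3, 14.72 to 16.17 on day 7, 15.40 to 16.72 on day 14 and 15.75 to 16.65 on day 56. Zic1, Slc22a6 and Dpep1 of the list were near background in every group. Its part in the values of the matrix genes was not tested. Of the 40 measured matrix glycoproteins and proteoglycans, 19 (47.5%) were called higher on day 7 and 3 (7.5%) lower, and Fmod and Fbln1 are the late genes among them.

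**Figure D3:**
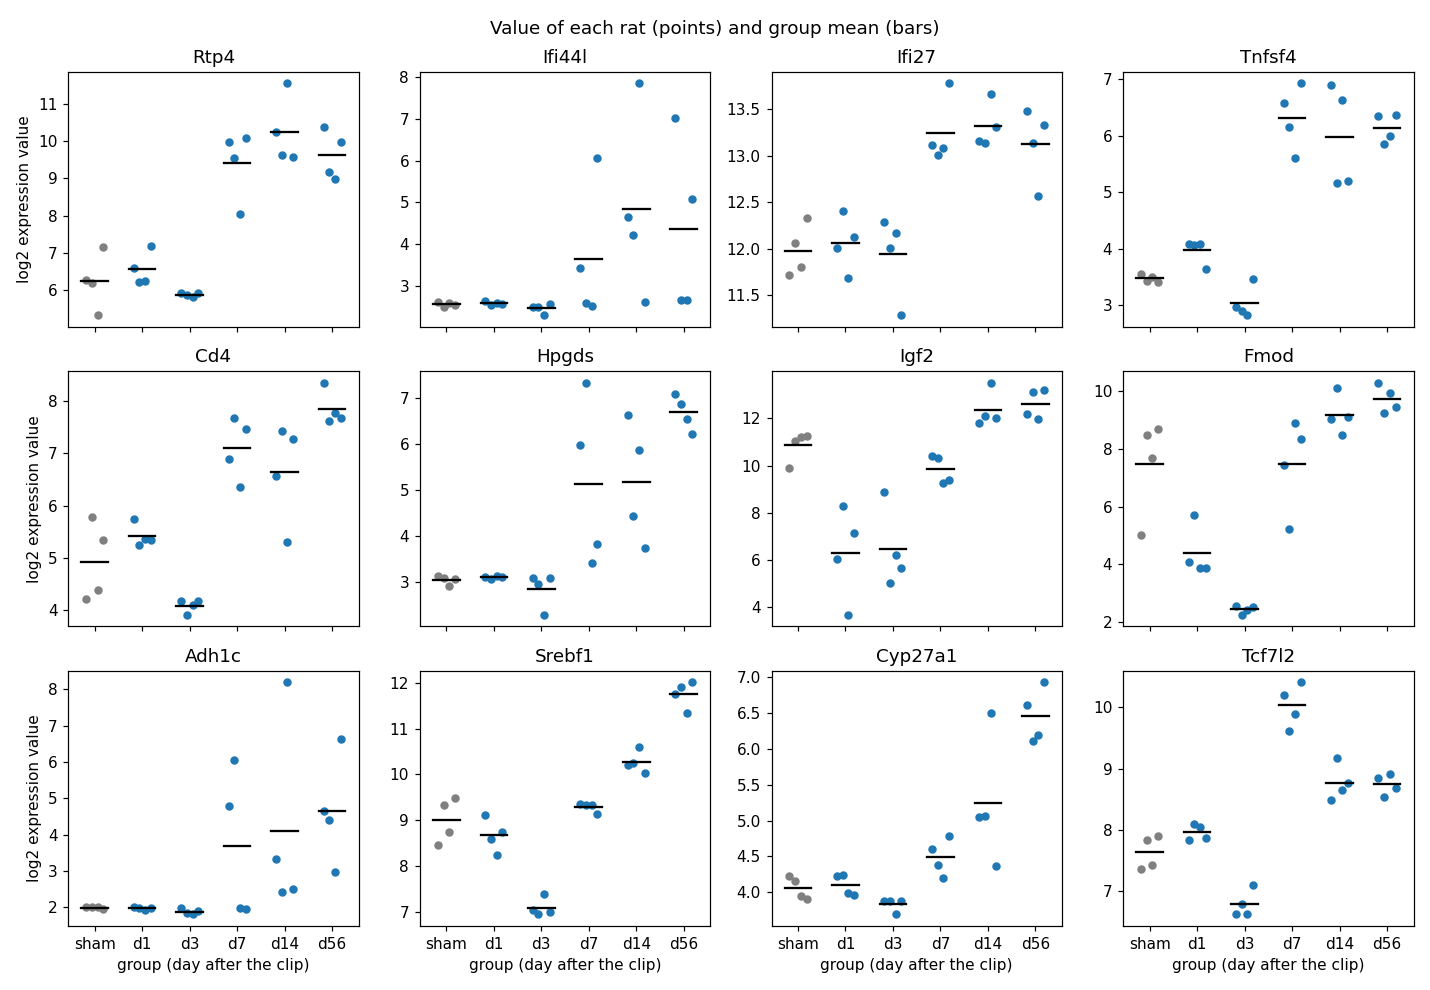
Log2 expression value of each rat (points) and group mean (bars) for 12 of the late genes, by group (sham and days 1, 3, 7, 14 and 56 after the clip, 4 rats each), with a separate vertical scale for each gene. Igf2 and Fmod dip on days 1 and 3, Tcf7l2 peaks on day 7 with values of 9.62 to 10.41, Srebf1 reaches 11.33 to 12.01 on day 56, and Ifi44l is high in only some rats of each later group.

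The 5 genes of lipid, retinol, carnitine and copper handling were all higher on day 56 than on day 14 in their means, and 1 of them, Cp, rose on day 7. Srebf1, the master transcription factor of fatty acid synthesis, was 8.45, 9.34, 8.74 and 9.48 in sham, 6.94 to 7.38 on day 3, 9.36, 9.33, 9.32 and 9.13 on day 7, 10.21, 10.24, 10.60 and 10.03 on day 14 and 11.76, 11.91, 11.33 and 12.01 on day 56. Day 3 lay below day 1, and from day 7 on each group lay above the one before it with no overlap. Its day 7 estimate was 0.28 (SE 0.21, adjusted p = 0.259).

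Cp, the copper-carrying ferroxidase ceruloplasmin, was 10.30, 11.33, 11.00 and 11.44 in sham, 11.80 to 12.02 on day 7, 12.34 to 12.94 on day 14 and 13.45, 13.58, 13.53 and 13.47 on day 56. The day 7 fold change was 0.92 (SE 0.25, adjusted p = 0.00719), and the 3 later groups did not overlap. Cyp27a1, the mitochondrial hydroxylase that turns cholesterol into 27-hydroxycholesterol, was dim in sham at 3.91 to 4.23 and read 4.60, 4.38, 4.20 and 4.79 on day 7, 5.05, 5.06, 6.50 and 4.37 on day 14 and 6.62, 6.11, 6.20 and 6.93 on day 56. Day 14 replicate 3 was its highest day 14 rat, and Cyp27a1 did not meet the late limit without that array.

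Slc22a5, the carnitine transporter OCTN2, was 4.31 to 4.80 in sham, 3.02 ± 0.76 (SD, n = 4) on day 3 and 5.01 to 7.35 on day 56. Adh1c, an alcohol dehydrogenase that oxidises retinol, was at background in every sham, day 1 and day 3 rat, between 1.81 and 2.01. It then read 4.79, 6.05, 1.98 and 1.96 on day 7, 3.34, 2.41, 8.19 and 2.51 on day 14 and 4.64, 4.40, 2.97 and 6.62 on day 56. Its day 7 estimate of 1.70 (SE 1.05, adjusted p = 0.174) thus came from 2 of 4 rats, whereas all 4 day 56 rats were above every sham rat, and it did not meet the late limit without day 14 replicate 3. Of 31 measured genes of lipid uptake, storage and export, 18 (58.1%) were called higher and 3 (9.68%) lower on day 7. The median difference of the 31 from sham was 0.82 on day 1 and 1.85 on day 56, and Cyp27a1 is the late gene among them. Scd, the lowest of the 3, was at -3.53 on day 1, 0.08 on day 3 and -2.87 on day 7. It fell further, to -3.9 on day 14 and -6.39 on day 56, while Srebf1 rose. Fatty acid synthesis itself was not measured.

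Of the 3 transcription factors, Tcf7l2 rose on day 7 and Nr4a3 and Nr2f2 did not pass the test. Tcf7l2, the nuclear effector of Wnt signalling that is known in the cord from differentiating oligodendrocytes, read 7.36, 7.84, 7.43 and 7.90 in sham, 6.62 to 7.10 on day 3, 10.20, 9.62, 9.90 and 10.41 on day 7, 8.49 to 9.18 on day 14 and 8.53 to 8.92 on day 56. The fold change of 2.40 (SE 0.17, adjusted p = 1.06e-08) had the lowest adjusted p of the 39 genes on day 7, and all day 7 rats were above all late rats. Nr2f2, the orphan receptor COUP-TFII of veins and mesenchyme, was 9.58 to 10.66 in sham, 10.35 to 11.81 on day 7 and 10.94 to 12.19 on day 56 (day 7 estimate 0.94, SE 0.45, adjusted p = 0.0848). Nr4a3, an immediate-early orphan receptor, was near background in sham at 2.32 to 2.64 and reached 3.51 to 4.39 on day 14.

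Of the 8 other genes 4 rose on day 7, where 23.5% of all genes did. Clic2, a chloride intracellular channel protein, was 8.08 to 8.56 in sham, 5.54 to 5.91 on day 3 and 10.37, 10.66, 8.78 and 8.52 on day 7 (1.28, SE 0.41, adjusted p = 0.018), but without day 7 replicate 1 or replicate 2 the adjusted p was 0.0714 or 0.0684. Spats2l, a stress granule protein, changed by 1.16 (SE 0.29, adjusted p = 0.00314). Fam107a, an actin-binding stress protein of astrocytes and neurons, changed by 1.02 (SE 0.39, adjusted p = 0.0389), and Sft2d2, a vesicle transport protein, by 0.91 (SE 0.34, adjusted p = 0.036). The last 2 lost their calls on leaving out any of 6 arrays, with the highest adjusted p at 0.11 for Fam107a and 0.122 for Sft2d2.

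Tmem204, a claudin-like membrane protein of endothelium, was 4.22 to 4.47 in sham, 6.60, 7.84, 4.38 and 4.33 on day 7, 5.50 to 9.29 on day 14 and 7.52 to 8.78 on day 56. The day 7 rats fell into 2 that were high and 2 at the sham level, and the estimate of 1.43 (SE 0.70, adjusted p = 0.091) did not pass the test, while the day 56 difference of 3.83 was the highest of the 39 genes. Synpo2, an actin-binding protein of smooth muscle, was 7.72 to 8.74 in sham, 4.82 to 5.62 on day 3 and 9.80 to 10.40 on day 56. Optn, the autophagy receptor optineurin, stayed near its sham range of 9.30 to 9.94 on day 3 at 9.21 to 9.49 and reached 11.15 to 11.56 on day 56. LOC100911864, listed in RefSeq as a long non-coding RNA, was 5.74 to 7.55 in sham, 8.01 to 8.31 on day 14 and 8.26 to 8.69 on day 56.

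Between the late time points most of the 39 genes did not separate. The day 56 estimate was higher than that of day 14 in 26 genes and lower in 13, with a median difference of 0.25, against -0.04 over all genes. Srebf1 alone passed the test, with a difference of 1.49 (SE 0.21, adjusted p = 0.00155), and 0 genes were called lower. With the same difference the adjusted p was 0.069 with day 14 and day 56 fitted alone and 0.186 by the methods' t-test. Over all genes 0.19% were called higher and 0.148% lower. At an unadjusted p under 0.05 the counts were 7 higher and 0 lower. The share of all genes at this unadjusted threshold was not counted, and nothing is read from the number. The 7 included Cyp27a1, with a difference of 1.22 (SE 0.29, adjusted p = 0.107), Cp with 0.75 (SE 0.25, adjusted p = 0.306) and Cd4 with 1.22 (SE 0.40, adjusted p = 0.296). Without day 14 replicate 3, Cyp27a1 passed the test with a difference of 1.64 (adjusted p = 0.000334).

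The late values depended in part on particular rats. Correlations between arrays of one group ran from 0.973 to 0.996, and array medians from 4.29 to 4.45. Day 7 replicates 2 and 3 and day 14 replicate 3 correlated least with their own groups. Day 14 replicate 3 was the highest of its group in 23 of the 39 genes (59% of them, against 27.4% of all genes), and day 56 replicate 4 in 22 (56.4%, against 23.6%). In the marker lists day 14 replicate 3 stood apart more than day 56 replicate 4 did. Day 14 replicate 3 had the highest summed level of its group in 19 of the 32 lists, among them fibroblast and meninges (16.72), interferon-stimulated genes (16.25), macrophage (16.19) and collagens (16.02), and the lowest for neuron (12.76). Day 56 replicate 4 was the highest in 11 of the 32, where day 56 replicates 1, 2 and 3 were in 9, 8 and 4. Its lists included fibroblast and meninges (16.65), and it was the lowest for neuron (14.02). In sham, replicate 1 was the lowest in 21 of the 39 genes (53.8%, against 26.5%) and was also the lowest in 21 of the 32 lists, among them fibroblast and meninges (14.86), macrophage (10.75) and complement (11.90). The part of the tissue taken from each rat in these values was not tested. Without day 7 replicates 2 and 3 and day 14 replicate 3 together, 37 genes met the limits, 33 of them among the 39, and 19 of the 39 were called higher on day 7.

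The arrays carried 31 other ProbeSets for 18 of the 39 genes, which gave further readings of the same transcripts. In 25 of the 31 both late differences were above 0, in 9 both were at least 1, and 6 met all the limits. The 25 include ProbeSets that read low and hardly moved. A Sft2d2 ProbeSet with a sham mean of 1.94 was at 0.02 on both late days. A Tcf7l2 ProbeSet with a sham mean of 2.54 was at 0.06 and 0.01. The share over all ProbeSets was not counted, and nothing is read from the 25. The 6 were 3 further ProbeSets of RT1-S3 and 1 each of Srebf1, Spats2l and Sft2d2. For Srebf1 the second ProbeSet differed from sham by -3.23 on day 3, 0.34 on day 7, 1.31 on day 14 and 2.93 on day 56.

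For Cp the choice decided the timing. Its 2 other ProbeSets were dimmer in sham, at 8.65 and 8.40, and stood 1.16 and 3.15 above sham on day 1, so Cp was late by its brightest ProbeSet only. An Nr2f2 ProbeSet not used, at 7.33 in sham, also passed the early limit. It stood 0.68 above sham on day 1, 1.21 on day 14 and 1.78 on day 56. The other Fbln1 ProbeSet, at 3.63 in sham, stood at 0.77 on day 1 and at 0.48 and 0.85 on the late days. For Rnf128 the other ProbeSet, at 6.51 in sham, stood at -1.17 on day 1, -2.06 on day 3 and 0.71 on day 7. On days 14 and 56 it was at 0.98 and 0.91, short of the late limit and smaller than the changes of the ProbeSet used. Of the 4 other Tcf7l2 ProbeSets, 3 were at their highest on day 7, at 1.61, 2.58 and 1.18 above sham, and the fourth stayed within 0.06 of sham on every day. The other ProbeSets of Igf2, Nr4a3, Adh1c and Icoslg were within 0.20 of sham on every day, at sham levels of 1.01 to 3.45. RT1-S3 belongs to a family of near-identical MHC class I genes, and its ProbeSets may read more than one of them.

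**Figure D4:**
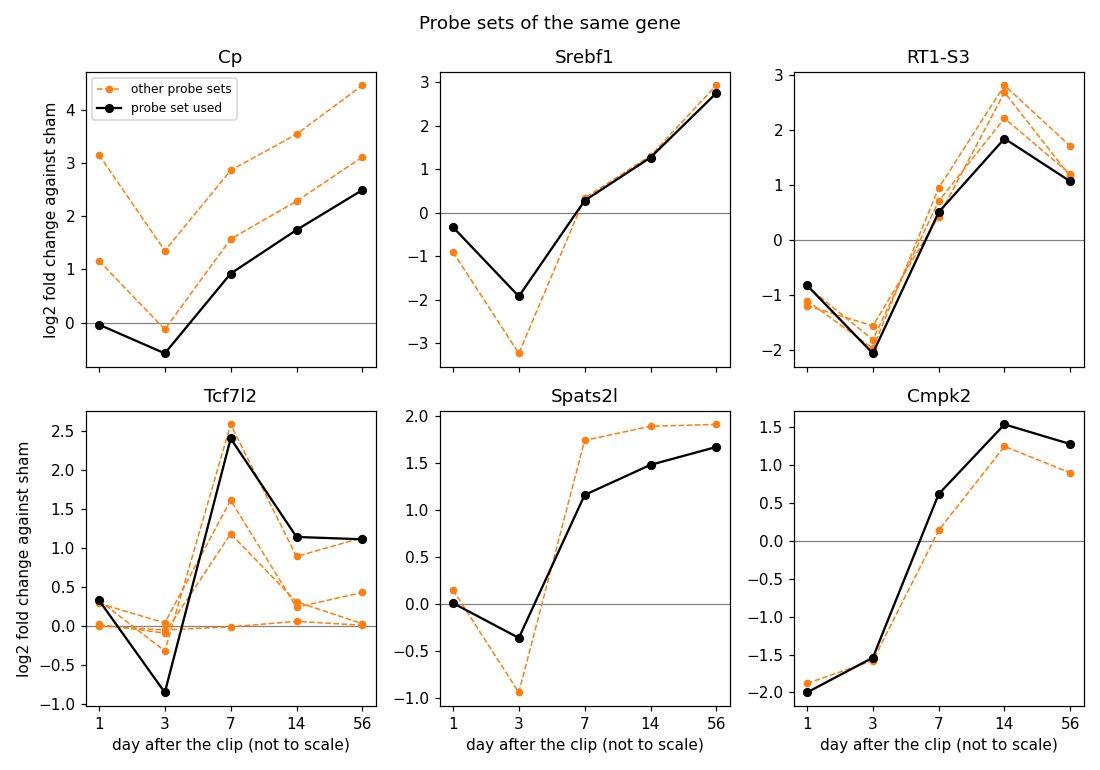
Log2 fold change against sham by day (not to scale) for the ProbeSet used (black) and the other ProbeSets of the same gene (orange, dashed) in 6 late genes, with a separate vertical scale for each. The 2 other Cp ProbeSets lie at 1.16 and 3.15 on day 1 while the one used is at -0.04, and the Srebf1, RT1-S3 and Cmpk2 ProbeSets run together.

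The edges of the group were close to their neighbours. The lower of the 2 late differences was 1.035 for Synpo2, 1.06 for Rarres2, 1.073 for RT1-S3 and 1.111 for Tcf7l2, just inside the late limit. Slc27a3 at 0.984, Nlrp6 at 0.981, Lamb2 at 0.977 and Aebp1 at 0.973 were just outside it. The higher of the 2 early differences was 0.497 for Cd4, 0.493 for Tnfsf4, 0.485 for Slfn5 and 0.469 for Sft2d2, just inside the early limit, with Dennd4c at 0.549, Cxcl14 at 0.575, Ifit2 at 0.584 and Wtap at 0.594 just outside. With each array left out in turn, 17 of the 39 genes met the limits every time and 22 failed them at least once.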

How the data were processed

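RNA from 24 rats was measured on Affymetrix rat genome arrays. The deposited table gives a log2 expression value for each ProbeSet, which the authors made with affy (version 1.12.2) and GCRMA; their methods state that each time point was pre-processed separately, so pre-processing and time cannot be told apart. Of 31099 ProbeSets, 20832 name one gene symbol in the platform annotation, 436 name several and 9831 none, and 57 are controls. No normalization was added. The 6 groups were fitted together in limma 3.58.1 (R 4.3.3), without a trend, and Benjamini-Hochberg adjustment covered the 20832 ProbeSets, with a threshold of 0.05. The fit was tested on simulated data. Errors are standard errors of the fit or ranges over rats, and the number of arrays limits the precision. The limma p-values weigh a difference of group means against a spread between rats that is shared over the 6 groups. For some genes the spread differed much between groups, as for Adh1c with an SD of 0.02 in sham and 2.06 on day 7. The 39 genes are all named. The genes and the gene lists (32, with 572 genes measured) were chosen with earlier results of these data known, and lists share genes. Summed levels are log2 of summed linear values. ProbeSets with group means under 3 in all groups were called near background.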

Additional observations from a re-analysis of the deposited data

Results flagged for a closer look

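Among 234 groups of 4 rats (39 genes, 6 groups), 18 held 1 value apart from the other 3, and chance gives about 1 in 20. On day 14, replicate 3 was high for Slc6a13 at 9.62 (others up to 7.64), Adh1c at 8.19 (others up to 3.34) and Col4a5 at 10.56 (others up to 9.15). On day 7, Ifi27 was high in replicate 4 at 13.78, Ctsh low in replicate 3 at 11.96 and LOC100911864 low in replicate 2 at 6.70. In sham, Igf2 was low in replicate 1 at 9.88 (others 11.06 to 11.26), Slc22a5 high in replicate 1 at 4.80 and Nr4a3 high in replicate 4 at 2.64. On day 1, Tnfsf4 was low in replicate 4 at 3.64, Fmod high in replicate 2 at 5.71, and Sft2d2, Icoslg and Optn low in replicate 1 at 5.40, 7.80 and 8.69. On day 3, replicate 1 was high for Fbln1 at 6.09, Fam180a at 6.59 (others up to 4.01) and Spats2l at 8.23, and Cyp27a1 was low in replicate 3 at 3.69. The causes were not tested.

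Srebf1 was the gene whose late time points differed, by 1.49 on the log2 scale from day 14 to day 56.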

How the results depend on the processing

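The day 7 count of 18 higher genes was 15 after quantile normalization, 17 with a replicate block, 13 with 2 groups fitted alone and 13 by the methods' t-test after Benjamini-Hochberg (18 at their unadjusted threshold), and with 1 array left out it ran from 13 to 20. No gene was called lower in any of these. Some genes also gained a day 7 call. Tmem204 did without day 7 replicate 3 (adjusted p = 0.04), day 7 replicate 4 (0.0429) or day 14 replicate 3 (0.0482). Optn did without day 14 replicate 3 (0.0356) and Nr4a3 without day 7 replicate 2 (0.0476). Without the 3 arrays together Cmpk2, Cyp27a1 and Optn gained calls. No pairing of rats by replicate number was seen. The median correlation of deviations was 0.00442 over 60 same-number pairs (-0.686 to 0.46) and -0.0016 over 180 other-number pairs (-0.538 to 0.62). Medians cannot show that no arrays shared a batch. The block cost only the call of Fam107a (adjusted p = 0.0518). The count of 1 gene higher on day 56 than on day 14 was 0 with 2 groups alone, 0 by the methods' t-test (6 at their unadjusted threshold), 2 without the 3 arrays, a choice made after seeing the data, and 1 to 2 with 1 array left out. The rule gave 16 genes with a late limit of 1.5, 83 with an early limit of 1, 13 with early values within 0.5 in both directions, and 33 to 55 with 1 array left out. With the mean of a gene's ProbeSets it gave 32 genes, 28 of them shared, and lost 11: Cp, Fbln1, Sft2d2, Igf2, Nr4a3, LOC100911864, Synpo2, Icoslg, Optn, Nr2f2 and Tcf7l2. Quantile normalization lost Tnfsf4 and Cd4, and median centring these and Slfn5 and Sft2d2. Signs turned for estimates near 0 on day 7: Slc6a13 ran from -0.014 to 1.17 with 1 array left out, Fmod from -0.80 to 0.77 (-0.04 after quantile normalization), Fam180a from -0.49 to 1.00 (-0.15 without the 3 arrays), and Synpo2 was -0.088 as a mean of its ProbeSets. The day 56 minus day 14 difference of Ifi44l ran from -1.36 to 0.53 (0.53 without the 3 arrays). The causes were not tested. Values near background bound what low genes can show below sham.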
